A study of Mus musculus with 16 samples.

Results

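Ephrins and their Eph receptors form a membrane-bound signalling system, and 9 of these genes were followed here through the RNA-seq libraries of mouse bone endothelial cells (ECs): the ligand genes Efna1, Efnb1 and Efnb2 and the receptor genes Epha2, Epha4, Ephb1, Ephb2, Ephb3 and Ephb4. They were chosen by symbol, or by Ensembl identifier where a table gives no symbols, out of 38926 rows in the table of sorted wildtype ECs, 21603 in the Yap1/Taz lists and 38922 in the Lats2 table, and all 9 were found in each. The 16 libraries fall into 6 groups, all on a C57BL/6 background. ECs of the metaphysis (mpECs, 3 libraries) and of the diaphyseal bone marrow (bmECs, 3 libraries) came from wildtype 3-week-old mice whose Cdh5-mT/nG transgene marks ECs under the Cdh5 promoter. Bone ECs of the control group at postnatal day 21 were Yap1flx/flx; Wwtr1flx/flx and Cdh5CreERT2 negative (3 libraries), and those labelled ECKO were of the same floxed genotype and Cdh5CreERT2 positive (3 libraries). The controls called Lats2 Cont were Lats2flx/flx without Cdh5CreERT2 (2 libraries), and the libraries called Lats2 cKO carried the Cre (2 libraries). Cdh5CreERT2 is a tamoxifen-dependent Cre recombinase under the promoter of the VE-cadherin gene and so acts in ECs of every vessel type, and the mutants and their controls share the floxed alleles. The values are FPKM, fragments per kilobase of exon scaled by the mapped fragments of the library. For the Yap1/Taz lists, which have no column names, that unit was inferred. The 3 tables were each normalized separately, so that tests were made within a table only.

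Class A ephrins are held in the membrane by a lipid anchor and class B ephrins span it. Both bind Eph receptor tyrosine kinases on a neighbouring cell, and signals run into the receptor-bearing cell and back into the ligand-bearing cell. Ephrin-B2 marks arterial ECs and its receptor EphB4 marks venous ECs, and the pair is known for keeping arteries and veins apart and for controlling sprouting and the uptake of VEGF receptors, while ephrin-A1 and EphA2 act in the remodelling of capillaries. In bone, ephrin-B2 and EphB4 are also used between osteoclasts and osteoblasts, so that a sorted EC sample containing other bone cells could carry their RNA.

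The promoters of the genes whose difference passed the test in 1 of the comparisons are shown first, since the study concerns the Hippo effectors Yap1 and Taz, which reach DNA through TEAD factors. The sequences are from RefSeq on GRCm38.p6 and run from 250 bases before to 50 bases after the annotated start, 5′ to 3′ on the strand of the gene. Capitals mark any match, on either strand, to the core words GGAATG (TEAD), TGGGAA (RBPJ, the DNA-binding partner of Notch) or ACGTG (hypoxia-inducible factors). The Efnb2 promoter lies at chr8:8661193-8661492 on the minus strand, the Ephb1 promoter at chr9:102354644-102354943 on the minus strand and the Ephb4 promoter at chr5:137349859-137350158 on the plus strand.
Efnb2: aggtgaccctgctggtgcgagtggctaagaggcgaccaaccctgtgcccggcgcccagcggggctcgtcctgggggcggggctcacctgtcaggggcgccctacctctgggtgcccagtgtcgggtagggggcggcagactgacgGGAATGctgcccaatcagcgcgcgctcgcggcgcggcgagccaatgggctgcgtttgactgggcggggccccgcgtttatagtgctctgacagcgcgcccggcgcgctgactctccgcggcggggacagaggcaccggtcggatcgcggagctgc
Ephb1: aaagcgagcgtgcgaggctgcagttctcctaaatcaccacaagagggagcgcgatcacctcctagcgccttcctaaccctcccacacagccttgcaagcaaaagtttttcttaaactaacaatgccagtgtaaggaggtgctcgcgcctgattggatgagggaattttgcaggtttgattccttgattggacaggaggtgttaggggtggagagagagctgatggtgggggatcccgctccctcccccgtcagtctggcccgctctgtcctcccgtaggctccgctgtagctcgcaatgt
Ephb4: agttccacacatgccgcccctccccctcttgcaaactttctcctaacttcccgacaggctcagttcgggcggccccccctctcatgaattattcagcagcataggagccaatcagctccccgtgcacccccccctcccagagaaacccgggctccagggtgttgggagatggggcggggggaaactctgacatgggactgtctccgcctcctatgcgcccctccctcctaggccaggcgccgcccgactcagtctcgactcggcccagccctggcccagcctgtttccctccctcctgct
The Efnb2 window holds 1 TEAD word, which begins 105 bases before the start. Neither Ephb1 nor Ephb4 holds any of the 3 words in its window. Of 32851 promoters of this length, 14.7% hold the TEAD word, 25.6% the RBPJ word and 19.6% the hypoxia word. Among the other members, the Epha2 window holds 2 TEAD words, the Efnb1 window holds 2 RBPJ words, the Epha4 window holds 1 RBPJ and 1 hypoxia word, and the Ephb3 window holds 1 hypoxia word. A match is a word in a sequence and not evidence of a bound site, and a window without one says nothing about the factor elsewhere.

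Summed reads, estimated from the steps in the FPKM values at GENCODE M21 exon lengths, were 11122417 to 14756144 in the mpEC and bmEC libraries. The sums were 4889945 to 7162965 in the Yap1/Taz libraries and 4732694 to 7074017 in the Lats2 libraries. The estimate is too high for genes whose fitted length was shorter, such as Efnb2 (4324 against 6855 bases). In every library the sum exceeded the fragment total that the FPKM scale implies, so it is not a count of assigned reads. The summed FPKM of 6 endothelial genes (Pecam1, Cdh5, Kdr, Tek, Emcn and Erg) was 739 to 927 in mpECs, 841 to 853 in bmECs, 343 to 345 in the Yap1/Taz controls, 389 to 455 in the libraries labelled ECKO, 1124 to 1184 in the Lats2 controls and 1039 to 1110 in the libraries labelled Lats2 cKO, and no endothelial gene was at 0. Other bone cells left RNA as well. Erythroid genes had the largest sums, 17591 to 32789 FPKM in mpECs and 27343 to 37648 FPKM in bmECs. Neutrophil genes summed to 8107 to 19219 FPKM in mpECs and 6476 to 9261 FPKM in bmECs. In the Yap1/Taz controls these lists summed to 3265 to 3947 FPKM and 1674 to 2176 FPKM. In the libraries labelled ECKO they summed to 3268 to 4881 FPKM and 1342 to 3190 FPKM. Osteoblast genes summed to 247 to 975 FPKM in mpECs and 45.2 to 60.7 FPKM in bmECs, and chondrocyte genes to 14.8 to 17.2 FPKM in mpECs against at most 0.0388 FPKM in bmECs.

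The targeted genes were checked before any mutant comparison. Wwtr1, which encodes Taz, was at 10.0, 9.88 and 10.3 FPKM in the controls and at 15.3, 19.6 and 19.5 FPKM in the libraries labelled ECKO, a log2 difference of 0.78 (SE 0.12, limma adjusted p = 0.0272). Yap1 was at 1.07, 1.62 and 0.995 FPKM in the controls and at 1.43, 1.03 and 0.989 FPKM in the libraries labelled ECKO. Wwtr1 was thus higher where the label says it was deleted and the Yap1 ranges overlapped, so the label is used below only as a name for these libraries. Lats2 was at 23.4 and 24.0 FPKM in its controls and at 19.2 and 19.2 FPKM in the libraries labelled Lats2 cKO, a log2 difference of -0.29 (SE 0.11, limma adjusted p = 0.125). Gene-level FPKM is summed over all exons and does not isolate the floxed ones.

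Efna1 was by far the most abundant of the 9 genes in the wildtype ECs, and the ligand Efnb2 and the receptor Ephb1 were the only 2 whose level differed between the bone compartments by the test. This comparison asks what separates the growing metaphyseal vessels from the vessels of the marrow. Efnb2, the transmembrane arterial ligand, was at 9.90, 12.4 and 15.2 FPKM in the mpEC libraries and at 2.11, 2.62 and 2.67 FPKM in the bmEC libraries. Every mpEC library had over 3 times the Efnb2 of any bmEC library, from 529 to 639 reads against 75 to 136 reads. The log2 fold change on the log2(FPKM + 1) scale was -1.95 (SE 0.16), with a limma adjusted p of 0.000141.

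Ephb1, a receptor for B-class ephrins, was at 2.27, 1.92 and 2.62 FPKM in mpECs and at 0.225, 0.228 and 0.262 FPKM in bmECs. The groups were far apart, with 124 to 182 reads per mpEC library and 12 to 20 per bmEC library, and the mean was 9.52-fold higher in mpECs. The log2 fold change was -1.39 (SE 0.14, limma adjusted p = 0.000389) on the log2(FPKM + 1) scale, which understates the change of a gene this low. Without mpEC replicate 3 the mean of Ephb1 fell under 1 FPKM, the minimum for testing, and the gene was not tested. Of the Ephb1 exons, 2.17% overlap exons on the opposite strand.

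The remaining ligands had overlapping ranges and did not pass the test. Efna1, the lipid-anchored ligand of EphA2, was at 161, 221 and 220 FPKM in mpECs and at 171, 177 and 232 FPKM in bmECs, which is a log2 difference of -0.05 with a 95% interval from -0.43 to 0.32. Efnb1, the transmembrane ligand related to Efnb2, was at 6.33, 8.19 and 8.71 FPKM in mpECs and at 5.10, 7.20 and 6.97 FPKM in bmECs. The log2 difference was -0.24 with a 95% interval from -0.60 to 0.13 (limma adjusted p = 0.315). The bmEC libraries thus had less of 1 B-class ligand, with the ranges of the other overlapping, and the sum of Efnb1 and Efnb2 was 20.3 ± 3.86 FPKM in mpECs and 8.89 ± 1.45 FPKM in bmECs (SD, n = 3 each).

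Among the receptors, Ephb4, the venous partner of ephrin-B2, was at 15.7, 23.0 and 22.6 FPKM in mpECs and at 14.2, 14.8 and 19.5 FPKM in bmECs. The ranges overlapped, and the log2 fold change of -0.31 (95% interval -0.71 to 0.08, limma adjusted p = 0.230) did not pass the test. Epha2, the main receptor of ephrin-A1, was at 4.38, 5.21 and 6.04 FPKM in mpECs and at 4.13, 5.27 and 5.16 FPKM in bmECs (difference of -0.08 on the log2 scale, 95% interval -0.40 to 0.24). Epha4, which binds ephrins of both classes, lay near the minimum for testing, at 1.01, 1.14 and 0.895 FPKM in mpECs and at 0.691, 1.64 and 1.40 FPKM in bmECs. The ranges of Epha2 and of Epha4 overlapped between the groups, and neither gene passed the test.

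Ephb3 and Ephb2 were too low to be tested. Ephb3, another B-class receptor, was at 0.0386, 0.0159 and 0.0491 FPKM in mpECs and at 0.174, 0.202 and 0.203 FPKM in bmECs. These values correspond to 7 reads in all mpEC libraries together and 36 in all bmEC libraries together, a ratio of 5.60 for equal depth with an exact 95% interval from 2.46 to 14.9 that covers counting error only. Ephb2 had 0 to 3 reads in an mpEC library and 2 to 4 in a bmEC library, which is at the limit of detection in both groups. A library with 0 reads still allows a level of 3 reads.

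Of the 9 genes, 7 passed the filter and 2 of these 7 were called, both lower in bmECs, beside 23.5% of the 11422 genes tested (13.0% higher and 10.5% lower in bmECs). The median log2 fold change of the 7 was -0.24, beside -0.00068 over all genes tested.

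**Figure D1:**
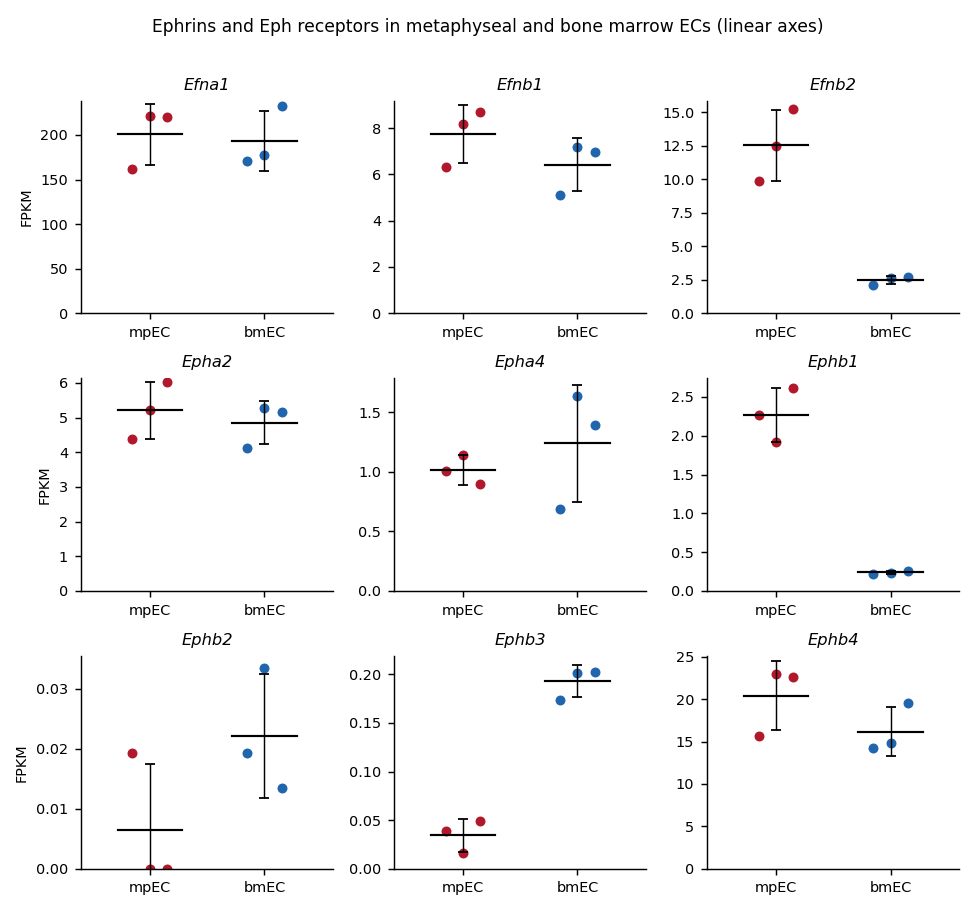
FPKM (linear axis from 0, its own scale in each panel) of each gene in the 3 mpEC libraries (red) and the 3 bmEC libraries (blue). Points are libraries, the wide line is the group mean and the bars are 1 SD. Efnb2 and Ephb1 are separated between the groups at measurable levels, Ephb3 only at levels up to 0.203 FPKM, and the other panels overlap.

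The order of the levels changed with the compartment. In mpECs the mean levels ran from Efna1 through Ephb4, Efnb2, Efnb1, Epha2, Ephb1, Epha4 and Ephb3 to Ephb2, and of these neighbours only Ephb3 and Ephb2 had overlapping ranges. In bmECs Efnb2 stood behind Efnb1 and Epha2, whose ranges overlapped each other, and Ephb1 stood behind Epha4. Efna1 made up 80.3% ± 0.668 of the summed FPKM of the 9 genes in mpECs and 85.9% ± 1.03 in bmECs (SD, n = 3 each). It was the 325th most abundant of the 11422 genes tested.

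Set against its receptor, Efnb2 showed the same separation. The ratio of Efnb2 to Ephb4 was 0.631, 0.542 and 0.674 in the mpEC libraries and 0.148, 0.177 and 0.137 in the bmEC libraries, 3.99-fold higher in mpECs. A two-sided exact permutation test gave p = 0.1, the smallest that 3 against 3 libraries allow. Relative to 100 FPKM of the 6 endothelial genes, Efnb2 was at 1.34 to 1.69 in mpECs and 0.25 to 0.313 in bmECs, and Ephb1 at 0.207 to 0.307 and 0.0267 to 0.0307, 5.01-fold and 9.54-fold higher in mpECs. On this scale Efnb1, whose FPKM overlapped, separated narrowly, at 0.857 to 0.969 in mpECs and 0.607 to 0.850 in bmECs. Efna1, Epha2 and Ephb4 overlapped. The sum of the 6 endothelial genes overlapped between the groups, but 5 of the 6 were called themselves, Kdr, Tek and Erg higher and Pecam1 and Emcn lower in bmECs.

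Genes of arterial ECs moved with Efnb2, and genes of venous or sinusoidal ECs moved the other way. Of 8 arterial genes tested, 6 were called lower in bmECs and none higher, and their summed level was 144 to 174 FPKM in mpECs and 37.6 to 50.1 FPKM in bmECs. Gja5 and Gja4, which encode arterial connexins, were 47.1 and 65.6 FPKM on average in mpECs against 8.23 and 13.6 FPKM in bmECs. Of 5 venous and sinusoidal genes tested, 4 were called higher in bmECs, Nr2f2, Flt4, Stab2 and Ackr1, and the summed level of the 6 listed was 539 to 721 FPKM in mpECs and 2342 to 3372 FPKM in bmECs. Ephb4 did not go with that list. The osteoblast and chondrocyte sums given above were also higher in the mpEC libraries, and macrophage and osteoclast genes summed to 64.6 to 111 FPKM in mpECs and 47.8 to 54.4 FPKM in bmECs. Of the 6 genes of that last list, 3 were called lower in bmECs, Ctsk, Acp5 and Mmp9, which osteoclasts are known to express. The part of these cells in the Efnb2 and Ephb1 values was not tested. In a bulk sample, fewer cells of a type and less RNA per cell cannot be told apart.

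Among the 13 other ephrin and Eph genes, 2 reached the filter in the wildtype ECs and 1 was called. Efna5, a lipid-anchored ligand that binds EphA receptors and also EphB2, was at 4.56, 5.27 and 4.21 FPKM in mpECs and at 12.6, 15.5 and 12.2 FPKM in bmECs. It rose by 1.34 on the log2 scale (SE 0.12, limma adjusted p = 0.000258). It was 2.87-fold higher in bmECs, the opposite direction to Efnb2. Efna4 was at 1.27, 3.38 and 1.67 FPKM in mpECs and at 1.06, 1.12 and 0.903 FPKM in bmECs (limma adjusted p = 0.135). The other 11 had a group mean of at most 0.353 FPKM.

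The genes that carry Eph and ephrin signals inside the cell were split in direction. Of 34 listed adaptors, exchange factors, kinases, phosphatases and proteases, 22 were tested, and 2 were called higher and 3 lower in bmECs, which at 22.7% of those tested is close to the share over all genes. Sdcbp, whose product syntenin-1 binds the tail of B-class ephrins, was at 235 FPKM on average in mpECs and 331 FPKM in bmECs (difference of 0.49 on the log2 scale, SE 0.09, limma adjusted p = 0.00650). Dab2, an endocytic adaptor that works with ephrin-B2 in VEGF receptor uptake, rose from 87.8 to 121 FPKM. Grb10, an adaptor that binds EphB1, had the largest change of the list, from 30.2 FPKM in mpECs to 15.7 FPKM in bmECs (difference of -0.91 on the log2 scale, SE 0.17, limma adjusted p = 0.00780), and the Src-family kinase gene Fyn and the Ras GTPase-activating gene Rasa1 were also lower, at log2 fold changes of -0.52 and -0.37.

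None of the 9 genes was called between the libraries labelled ECKO and their controls, but 5 of the 6 tested were higher in each library labelled ECKO than in each control. The question of this comparison is what changes in bone ECs when Yap1 and Wwtr1 are targeted, and as given above Wwtr1 went against the label. Efna1 was at 15.4, 15.2 and 16.2 FPKM in the controls and at 19.7, 21.6 and 22.2 FPKM in the libraries labelled ECKO, a log2 difference of 0.42 (SE 0.10, limma adjusted p = 0.0654). Efnb2 was at 2.58, 2.12 and 2.24 FPKM in the controls and at 3.81, 3.16 and 3.38 FPKM in the libraries labelled ECKO (log2 difference 0.43, SE 0.14, limma adjusted p = 0.141). Efnb1 was at 6.65, 7.07 and 6.88 FPKM in the controls and at 9.18, 8.57 and 7.55 FPKM in the libraries labelled ECKO (log2 difference 0.26, SE 0.11, limma adjusted p = 0.263). All 3 ligands were therefore separated by library but within the error that the test across 11320 genes allows.

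Epha2 was at 10.7, 12.5 and 8.30 FPKM in the controls and at 12.8, 18.2 and 19.5 FPKM in the libraries labelled ECKO, a log2 difference of 0.63 (SE 0.18, limma adjusted p = 0.107). It was the largest difference among the tested members, and without the first of the libraries labelled ECKO it was 0.80 with an adjusted p of 0.0405. Ephb4 was at 42.9, 44.9 and 41.0 FPKM in the controls and at 51.7, 54.7 and 59.5 FPKM in the libraries labelled ECKO (log2 difference 0.36, SE 0.09, limma adjusted p = 0.0909). Ephb2, which could not be read in the wildtype ECs, was at 1.09, 1.73 and 1.45 FPKM in the controls and at 1.92, 1.67 and 2.07 FPKM in the libraries labelled ECKO, with overlapping ranges (limma adjusted p = 0.445).

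The receptors under the filter did not separate. Epha4 ranged from 0.633 to 0.964 FPKM in the controls and from 0.575 to 0.838 FPKM in the libraries labelled ECKO, Ephb1 from 0.403 to 0.812 FPKM and from 0.462 to 0.923 FPKM, and Ephb3 from 0 to 0.370 FPKM and from 0.109 to 0.443 FPKM. Ephb3 had at most 16 reads in any of these libraries.

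Of all genes tested here 1.31% were called (0.883% higher and 0.424% lower in the libraries labelled ECKO), and none of the members was. By unadjusted p under 0.05, 5 of 6 members were higher, beside 9.79% of all genes, and the 5 whose groups did not overlap stand beside 12.3% of all genes. The median log2 difference of the 6 was 0.39, beside -0.0047 over all genes. The summed level of the 6 endothelial genes moved the same way, from 343 to 345 FPKM in the controls to 389 to 455 FPKM in the libraries labelled ECKO, and all 6 were higher, with none called. Per 100 FPKM of these endothelial genes, Ephb4 was at 11.9 to 13.0 in the controls and 12.1 to 13.3 in the libraries labelled ECKO (two-sided exact permutation p = 0.5), and the ranges of Efnb1, Efnb2 and Epha2 overlapped as well. Efna1 alone of these 5 stayed separated, at 4.40 to 4.71 and 4.79 to 5.05 per 100 FPKM, with a permutation p of 0.1, the smallest possible.

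The balance of the arterial ligand and the venous receptor did not separate. The ratio of Efnb2 to Ephb4 was 0.0602, 0.0471 and 0.0547 in the controls and 0.0737, 0.0578 and 0.0568 in the libraries labelled ECKO, with overlapping ranges (two-sided exact permutation p = 0.4). Of 7 arterial genes tested none was called and 6 were higher, with a median log2 difference of 0.51. The arterial sum was 196 to 264 FPKM in the controls and 293 to 347 FPKM in the libraries labelled ECKO. Of 6 venous and sinusoidal genes all were higher and 1 was called, Flt4, and their sum was 238 to 272 FPKM in the controls and 310 to 347 FPKM in the libraries labelled ECKO. Both lists were thus higher in the same libraries as the members. Osteoblast genes summed to 37.9 to 57.8 FPKM in the controls and 9.14 to 26.6 FPKM in the libraries labelled ECKO. The part of these cells in the members' differences was not tested.

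Of the 13 other family genes, 3 were tested and none called. Efna3, a lipid-anchored ligand, was at 0.433, 0.716 and 0 FPKM in the controls and at 1.06, 2.60 and 1.59 FPKM in the libraries labelled ECKO (log2 difference 0.99, SE 0.26, limma adjusted p = 0.0922). These are 0 to 12 reads against 12 to 37, and 14.1% of the Efna3 exons overlap an antisense gene. Efna4 and Ephb6, a receptor without kinase activity, differed by less than 0.05 on the log2 scale. Of 29 signalling genes tested, none was called, 23 were higher in the libraries labelled ECKO, and the median difference was 0.09. Limma-voom on the recovered reads called 0 of the signalling genes, of the members and of the other family genes by adjusted p.

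**Figure D2:**
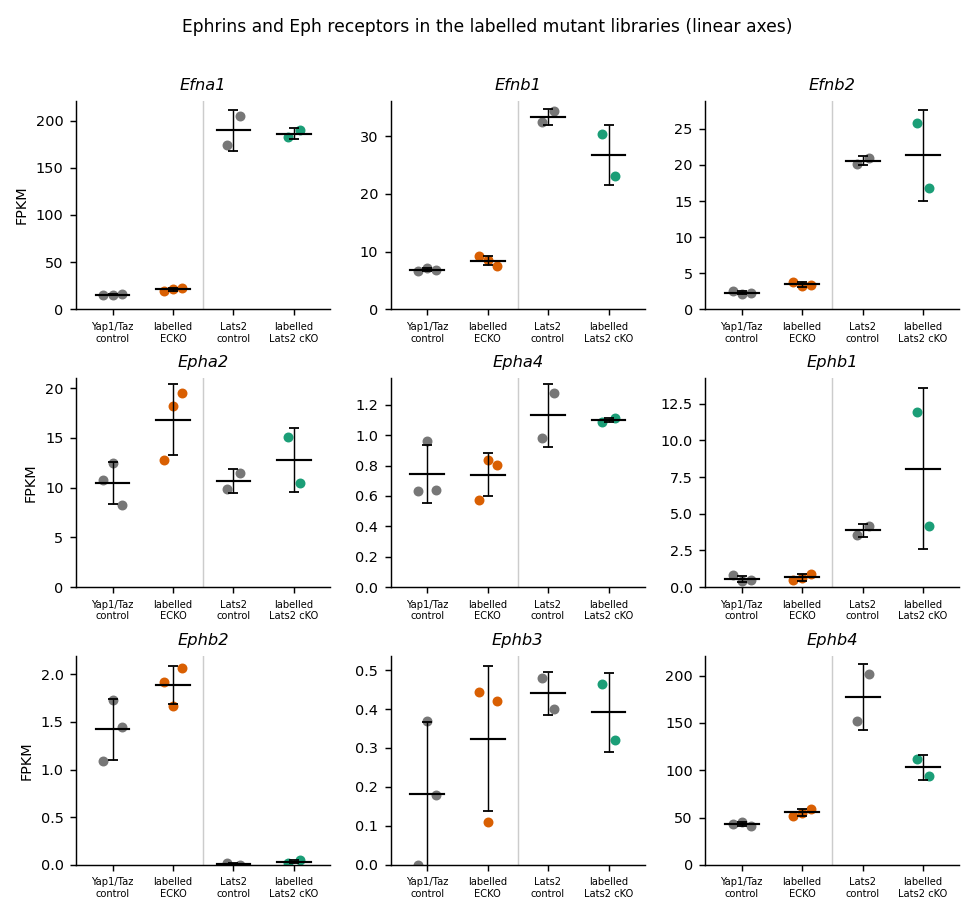
FPKM (linear axis from 0, its own scale in each panel) of each gene in the 3 Yap1/Taz controls (left grey), the 3 libraries labelled ECKO (orange), the 2 Lats2 controls (right grey) and the 2 libraries labelled Lats2 cKO (green). Points are libraries, wide lines are means and bars are 1 SD; the grey vertical line parts tables that were normalized separately. Efna1, Efnb1, Efnb2, Epha2 and Ephb4 lie higher in every library labelled ECKO than in any control, with none called. Efnb1 and Ephb4 lie lower in both libraries labelled Lats2 cKO than in either control, and only Ephb4 was called.

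Ephb4 was the member that changed between the libraries labelled Lats2 cKO and their controls. Lats2 encodes a Hippo pathway kinase that phosphorylates Yap1 and Taz, and the comparison asks what its targeting in ECs changes. Ephb4 was at 152 and 202 FPKM in the controls and at 112 and 93.8 FPKM in the libraries labelled Lats2 cKO. Both libraries labelled Lats2 cKO lay under both controls, by 0.582-fold on average, on 1965 to 5568 reads per library. The log2 fold change was -0.77 (SE 0.18, 95% interval -1.23 to -0.30, limma adjusted p = 0.0407). The call was lost when any 1 library was left out, where the log2 fold change ran from -0.97 to -0.56. Such a fit leaves 1 library in a group. Without either control it called no gene at all, so the losses there say nothing of Ephb4.

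None of the ligands was called, and of them only Efnb1 lay under both controls in both libraries labelled Lats2 cKO. Efnb2 was at 20.1 and 21.0 FPKM in the controls and at 25.8 and 16.9 FPKM in the libraries labelled Lats2 cKO, 1 above and 1 below both controls (log2 fold change 0.02, 95% interval -0.52 to 0.56). Efnb1 was at 32.4 and 34.3 FPKM in the controls and at 30.3 and 23.0 FPKM in the libraries labelled Lats2 cKO (log2 fold change -0.32, 95% interval -0.74 to 0.09, limma adjusted p = 0.210). Efna1 was at 175 and 205 FPKM in the controls and at 182 and 190 FPKM in the libraries labelled Lats2 cKO (log2 fold change -0.02, 95% interval -0.36 to 0.32).

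The other receptors were not called either. Ephb1 was at 3.56 and 4.20 FPKM in the controls and at 12.0 and 4.18 FPKM in the libraries labelled Lats2 cKO, so that 1 library carried the whole difference (log2 fold change 0.75, SE 0.44, limma adjusted p = 0.264). Without the other library labelled Lats2 cKO the log2 fold change of Ephb1 was 1.41 with an adjusted p of 0.0430, and without the high one it was 0.09. Epha2 was at 9.85 and 11.5 FPKM in the controls and at 15.1 and 10.5 FPKM in the libraries labelled Lats2 cKO (limma adjusted p = 0.462). Epha4 stayed between 0.985 and 1.28 FPKM in all 4 libraries and Ephb3 between 0.319 and 0.479 FPKM, and Ephb2 had at most 3 reads in a library.

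Of 7 members tested, 1 was called, lower, beside 21.8% of the 12451 genes tested (11.8% higher and 9.98% lower in the libraries labelled Lats2 cKO). Their median log2 fold change was -0.02, beside -0.0031 over all genes. The ratio of Efnb2 to Ephb4 was 0.132 and 0.104 in the controls and 0.230 and 0.180 in the libraries labelled Lats2 cKO. It was higher in both, with Ephb4 under both controls and Efnb2 on either side of them, and 2 against 2 libraries cannot give a two-sided exact permutation p under 0.333. Relative to 100 FPKM of the 6 endothelial genes, Ephb4 was at 13.5 and 17.0 in the controls and at 10.1 and 9.02 in the libraries labelled Lats2 cKO, where 3 of the 6 were called themselves, Pecam1 higher and Kdr and Tek lower.

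Venous and sinusoidal genes were lower together with Ephb4. Of 6 such genes tested, 4 were called lower, Nr2f2, Flt4, Stab2 and Ackr1, and 1 higher, Vwf, and the summed level was 731 to 829 FPKM in the controls and 253 to 269 FPKM in the libraries labelled Lats2 cKO. Stab2, a scavenger receptor of sinusoidal ECs, fell by 2.91 on the log2 scale. Of 8 arterial genes, 3 were called higher, Sox17, Cxcr4 and Unc5b, and none lower, and their sum was 140 to 177 FPKM in the controls and 232 to 249 FPKM in the libraries labelled Lats2 cKO. Mural cell genes summed to 7.87 to 13.1 FPKM in the controls and 38.2 to 60.4 FPKM in the libraries labelled Lats2 cKO. In the same order, marrow stroma genes summed to 46.2 to 59.4 and 90.2 to 95.8 FPKM. Erythroid genes summed to 1809 to 2530 and 145 to 1064 FPKM, and neutrophil genes to 1182 to 1766 and 455 to 589 FPKM. B cell genes summed to 73.6 to 86.2 and 16.3 to 23.2 FPKM, and megakaryocyte genes to 29.1 to 106 and 9.45 to 12.1 FPKM. The osteoblast, chondrocyte, and macrophage and osteoclast sums overlapped. The part of these cells in the Ephb4 value was not tested.

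Efna5, which was higher in bmECs, was at 3.34 and 2.29 FPKM in the Lats2 controls and at 0.591 and 0.548 FPKM in the libraries labelled Lats2 cKO, on 55 to 67 and 9 to 11 reads. The log2 fold change was -1.27 (SE 0.25, limma adjusted p = 0.0255). The call was lost when any 1 library was left out, and the losses without a control say nothing of Efna5 either. Epha1, a receptor for A-class ephrins, was at 1.04 and 1.13 FPKM in the controls and at 2.10 and 1.72 FPKM in the libraries labelled Lats2 cKO (limma adjusted p = 0.179), and Efna4 was not called.

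Of 28 signalling genes tested, 9 were called lower and none higher in the libraries labelled Lats2 cKO. That is 32.1% of those tested, beside 21.8% of all genes called and 9.98% called lower, and the count was 7 with the replicate block and 3 with no filter on low values. By sign alone, called or not, 17 were lower and 11 higher, with a median log2 fold change of -0.15. Vav2, whose product is recruited by activated Eph receptors, had the largest change, from 7.31 to 1.77 FPKM (log2 fold change -1.58, SE 0.17, limma adjusted p = 0.00944). Pard3, a polarity protein that works with Dab2 and ephrin-B2, went from 2.28 to 0.263 FPKM and Dab2 from 88.6 to 35.5 FPKM. Vav3, Inppl1, Yes1, Sh2d3c, Crk and Sdcbp were the other 6. Dab2 and Sdcbp, the 2 genes of this list that were called higher in bmECs, were thus both lower here. The part of the blood, mural and stromal cells, whose sums are given above, in these values was not tested. Without the first or the second control, 0 of all genes tested were called, so those fits say nothing of the signalling genes.

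**Figure D3:**
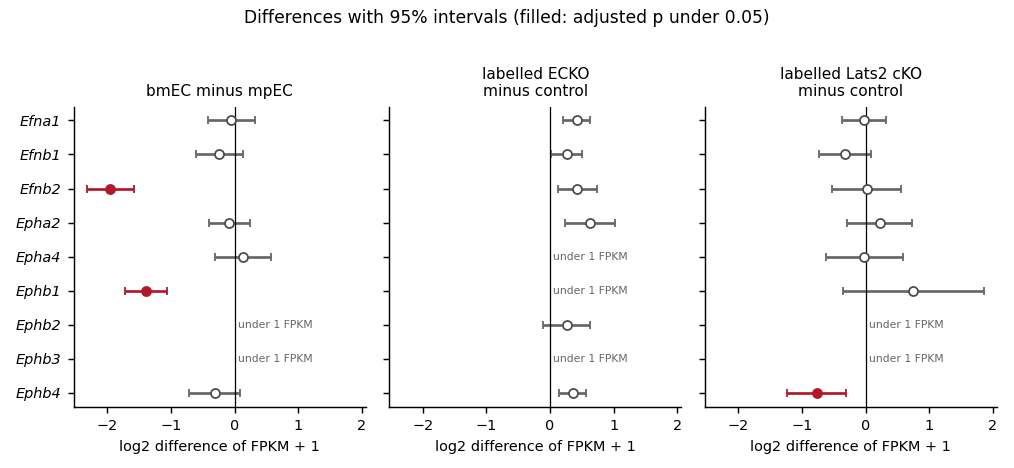
Difference of log2(FPKM + 1) for each member in the 3 comparisons, with the 95% interval of the limma fit for that gene alone (horizontal bars, not adjusted for the number of genes). Filled red points have an adjusted p under 0.05: Efnb2 and Ephb1 at -1.95 and -1.39 in bmECs and Ephb4 at -0.77 in the libraries labelled Lats2 cKO; genes with a mean under 1 FPKM have no point.

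Levels set across the tables are descriptions, since each table has its own normalization and sort. Ephb4 exceeded Efnb2 in all 16 libraries, with a ratio of Efnb2 to Ephb4 that was nearest to 1 in mpECs. Efna1 made up 80.3% of the summed FPKM of the members in mpECs, 43.5% in the Lats2 controls and 19.3% in the Yap1/Taz controls, where Ephb4 was the most abundant member. Its place among all genes tested differed in the same way, 325th of 11422 in the wildtype table, 276th of 12451 in the Lats2 table and 2969th of 11320 in the Yap1/Taz table. Ephb2 and Ephb6 were the reverse. Ephb2 had 65 to 150 reads per library in the Yap1/Taz table and at most 4 in any library of the other tables, and Ephb6 was at 2.54 to 3.64 FPKM in the Yap1/Taz libraries and at most 0.799 FPKM elsewhere.

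**Figure D4:**
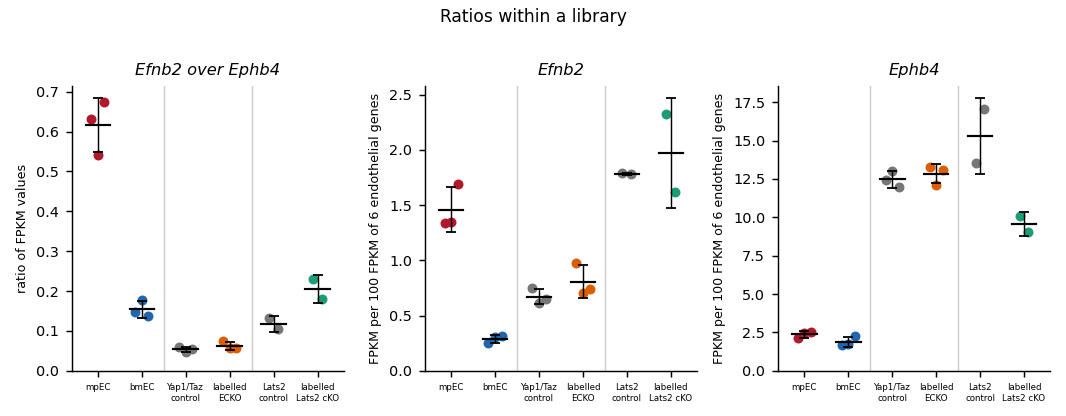
Ratio of Efnb2 to Ephb4 (left) and the FPKM of Efnb2 (middle) and Ephb4 (right) per 100 FPKM of the 6 endothelial genes, in each library of the 6 groups on linear axes from 0. Points are libraries, wide lines means and bars 1 SD, and vertical lines part the 3 tables. The ratio is 0.542 to 0.674 in mpECs and 0.137 to 0.177 in bmECs, and is higher in both libraries labelled Lats2 cKO than in their controls.

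The genes whose pattern was most like that of Efnb2 and of Ephb4 were sought among 4937 genes whose mean reached 5 FPKM in every table, by the Pearson correlation of log2(FPKM + 1) over the 16 libraries after the mean of each table was removed. For Efnb2 these were Thsd1 and Olfml2a, both with r = 0.97, and Maged2 with r = 0.95. For Ephb4 they were Jup with r = 0.96, Fam102a with r = 0.95 and Arap3 with r = 0.91. The libraries share the same group contrasts, so these values describe the 16 libraries and carry no test.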

How the data were processed

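Bone ECs were sorted by flow cytometry, and total RNA libraries (TruSeq Stranded) were sequenced on a MiSeq. Per the labels, the authors used TopHat, HTSeq 0.6.1 and DESeq2 with mm10 or GRCm38. The deposited values are FPKM per gene in 3 separately normalized tables, and the step that gave FPKM is not given in the sources used here. The Yap1/Taz lists have no column names, and their unit was inferred from the whole-read steps described below. No column lacked a sample.

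Comparisons were made with limma 3.58.1 in R 4.3.3 on log2(FPKM + 1), for genes whose mean over the compared libraries reached 1 FPKM, with a mean-variance trend, 1 group term and Benjamini-Hochberg adjustment over all genes tested. Tests were two-sided and a gene was called at an adjusted p under 0.05. FPKM are not counts, so the DESeq2 model of the study was not used. The fit was tested on simulated data. Fold changes are on the log2(FPKM + 1) scale and understate those of low genes. Ratios within a library used two-sided exact permutation tests.

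Reads were recovered by dividing FPKM by the value of 1 read at GENCODE M21 exon lengths. Of values up to 20 reads, 62.3% to 70.1% lay within 0.02 of a whole read, where rounding alone would give 4%. For each ephrin and Eph gene the smallest exon length that made its reads whole was used (Efnb2 4324 bases). Libraries with high read values for a gene did not enter that check, and no length was found for Epha8 and Epha10. Ensembl identifiers of the Yap1/Taz lists were matched to symbols for 98.9% of 21603. Symbols not found were matched through RefSeq synonyms (Ackr1 as Darc, Adgre1 as Emr1). Promoters are RefSeq sequences, with 10 entries for the 9 members, since Efna1 had 2.

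The labels number the libraries within a group and do not say whether each is a separate animal, so p-values measure the spread between these libraries. Pairs of replicates differed by 3.23 to 29.2 times the sampling noise (chi-square per degree of freedom), and none was a repeat. The members and the lists of family, signalling and marker genes were chosen with earlier results of these data known. All 9 members are named with their values, other family genes by name where tested, and of the signalling list the called genes with the largest changes, up to 3 in each direction, with the other called ones named after their values were seen. The Ephb3 and Ephb2 reads and the levels per endothelial RNA were added after seeing the data, as was the limma-voom fit. Alternatives were the pseudocount, the filter, quantile or median-ratio scaling, no trend, the replicate block and leaving out each library.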

Additional observations from a re-analysis of the deposited data

How the results depend on the processing

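Over the alternative fits, 257 of 285 values of the members and Efna5 kept their direction and their side of the threshold, 11 lost and 2 gained a call, and 15 turned sign, all of them uncalled in every fit. Efnb2 was called between bmECs and mpECs in all 14 alternatives (log2 fold change -2.49 to -1.81), and Ephb1 in all 12 that tested it. With a mean of at least 5 FPKM, 1 member (Efnb2) was called in that comparison, with no filter 3 (Ephb3 added), and leaving out libraries gave 1 to 2 there, 0 to 1 for the libraries labelled ECKO (Epha2) and 0 to 1 for those labelled Lats2 cKO (Ephb1, without replicate 2). In the Lats2 comparison 0 members were called with no filter on low values or no mean-variance trend (Ephb4 adjusted p = 0.0812 and 0.0636). Of other family genes there, 0 were called with no filter, and none reached a mean of at least 5 FPKM, so that setting tested none. With no filter 3 signalling genes were called.

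Leaving out a library in turn gave log2 fold changes of -0.203 to 0.028 for Efna1 and -0.181 to 0.013 for Epha2 between bmECs and mpECs. In the Lats2 comparison it gave -0.139 to 0.093 for Efna1, -0.272 to 0.313 for Efnb2, -0.020 to 0.465 for Epha2 and -0.116 to 0.081 for Epha4. Quantile normalization gave -0.010 for Efnb2 and 0.004 for Epha4, and limma-voom on recovered reads, added after seeing the data, gave -0.128 for Efnb2. The cause was not tested.

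With a replicate block, 2, 0 and 1 members were called in the 3 comparisons, as without it, and the calls of other family genes stayed in number at 1, 0 and 1. Signalling genes called went from 5 to 6 between bmECs and mpECs, stayed at 0 in the Yap1/Taz comparison and went from 9 to 7 in the Lats2 comparison. The labels do not say whether equal numbers mark a pair. In wildtype ECs deviations of same-numbered libraries correlated at 0.307, 0.0876 and 0.102, and those of differently numbered ones at -0.206 to 0.116. The block there raised the genes called from 2682 to 3072. In the Yap1/Taz table same-numbered libraries correlated between -0.175 and -0.123 and the others between -0.154 and 0.235. In the Lats2 table same-numbered libraries correlated at 0.0651 and the others at -0.0651. With 2 libraries in a group these values are equal and opposite by construction. Whether the libraries were paired was not tested. Over all genes the Yap1/Taz comparison called 148, and 45 with the replicate block, 357 with limma-voom, 17 without the trend, 1 without the filter and 1 to 293 without a library. The Lats2 comparison called 2711, and 1389 without the filter and 0 to 2701 without a library. Limma-voom, scaled to all reads, moved the median log2 fold change of all genes to -0.20 in wildtype ECs and -0.14 in the Lats2 table, and its calls were 891 higher and 2414 lower, and 1271 and 2039, against 1481 and 1201, and 1468 and 1243. Genes at a few reads, such as Ephb2 and Ephb3 in wildtype ECs, could not be compared beyond counting error.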
